A study of Mus musculus with 16 samples.

Results

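The SR proteins and hnRNPs are the 2 large families of nuclear proteins that bind pre-mRNA and steer where it is spliced. They were followed here through 36 genes of the 20409 in the deposited count table. The members were chosen by name: 11 SR protein genes (Srsf1 to Srsf7 and Srsf9 to Srsf12), 20 genes whose symbol starts with Hnrnp, and 5 related splicing regulators (Tra2a, Tra2b, Ptbp1, Ptbp2 and Ptbp3). The cells were adult neural stem cells, taken from the dentate gyrus of FVB/N males aged 8 to 10 weeks that were either Fmr1 -/y (KO), which lack the RNA-binding protein FMRP, or wild-type littermates (WT). Every culture was kept proliferating by the growth factors FGF2 (20 ng/ml) and EGF (20 ng/ml), and all were exposed for 10 min to cycloheximide at 100 µg/ml, which freezes ribosomes on mRNA, before lysis. Each lysate gave a library of ribosome footprints, the short mRNA stretches that a ribosome shields from nuclease, and a library of cytoplasmic RNA, so that 8 independently isolated cultures (4 KO and 4 WT) gave 16 libraries. The study asked which mRNAs change in abundance or in ribosome occupancy without FMRP.

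SR proteins carry an RNA recognition motif and a tail rich in arginine and serine. Bound to exonic enhancers, they help the spliceosome to define exons. hnRNPs coat nascent transcripts and often silence exons, and many also act in RNA export, stability and translation. Many genes of both families control their own level: a rise in the protein promotes inclusion of a so-called poison exon, or another non-productive splicing choice, and the resulting transcript with its early stop codon is degraded by nonsense-mediated decay or held in the nucleus. A gene-level RNA count can therefore hold RNA that yields no full-length protein, and footprints were set beside RNA for this reason. The RNA here was cytoplasmic, so transcripts held in the nucleus would enter these counts less, if at all. In the nervous system PTBP1 is the form of progenitors and glia, and its paralog PTBP2 takes over in newborn neurons.

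The RNA libraries held 5330018 to 6580305 estimated counts and the footprint libraries 9397586 to 17147612. The members took 1.07% to 1.20% of the RNA counts in KO and 0.786% to 1.17% in WT, and 1.74% to 2.15% of the footprint counts in KO and 1.37% to 2.32% in WT. In CPM, that is counts scaled to a common library size, Fmr1 had 12.6 to 27.2 CPM in KO footprints, against 129.1 to 149.3 CPM in WT footprints. In RNA it had 3.36 to 30.4 CPM in KO, against 27.4 to 104.2 CPM in WT, and these ranges overlap. Of 14 neural stem and progenitor markers the sum in RNA was 6150 to 8163 CPM in KO and 7266 to 9554 CPM in WT, while 5 microglial markers summed to at most 1.31 CPM in KO and 1.19 CPM in WT, with Aif1 and Cx3cr1 at 0 throughout. Astrocyte markers (6 genes) summed to 571 to 1619 CPM in KO RNA and 429 to 1929 CPM in WT RNA, oligodendrocyte-lineage markers (8 genes) to 1070 to 1788 CPM in KO and 1220 to 1795 CPM in WT, and neuroblast and neuron markers (9 genes) to 320 to 706 CPM in KO and 286 to 948 CPM in WT. Of the neuroblast and neuron markers, the 4 tested in RNA were all lower in KO, at a median log2 fold change of -0.69. In footprints 5 of the 8 tested were lower and 3 higher (median -0.58). At an edgeR adjusted p under 0.05, 0 of them differed in either assay. In bulk libraries such as these, fewer cells of a type and less RNA per cell cannot be told apart. WT culture 1 stood apart for some genes. Top2a, a gene of dividing cells, had 123 CPM in its RNA, against 269 to 683 CPM in the other WT cultures. Mki67, also of dividing cells, had 66.0 CPM there, against 68.5 to 205 CPM, so its RNA barely differed from the lowest of them. In footprints Mki67 had 230 CPM, against 453 to 687 CPM. Sox2 RNA was higher in WT culture 1, at 313 CPM, against 123 to 235 CPM. Nes, another stem and progenitor marker, went the other way. Its RNA was 1729 CPM in WT culture 1, against 2331 to 3109 CPM in the other WT cultures, and its footprints 1242 CPM, against 2081 to 2749 CPM. Replicates 1 and 2 carry footprint identifiers of 5 nt and replicates 3 and 4 of 8 nt, and the same replicate numbers differed for many members, as described further on.

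Most members carried more footprints per RNA than the median gene, as abundant genes in general did to a smaller extent. On the log2 scale of the edgeR fit, where 0 means that the gene takes equal shares of the footprint and RNA libraries after TMM scaling, the median of the 35 members tested was 1.01, against -0.02 for all 10863 genes tested. The edgeR quasi-likelihood test called 28 of the 35 members higher in footprints than in RNA at an adjusted p under 0.05, where the background over all genes was 32.5%. All 35 members are abundant, with at least 20 TPM in each of the 16 libraries, and among the 3714 genes tested that reach this level the median was 0.54 and 55.3% were called higher. The higher background is the one closer to the members, and it was added after the values were seen. The test called 3 members lower (background 32.6% over all genes and 15.5% over the abundant ones), namely Hnrnpul1, Srsf4 and Hnrnpul2, and did not call Hnrnpa1, Srsf6, Ptbp1 and Srsf9. Footprints and RNA came from the same lysates, which this fit does not use. With the culture as a block, or the replicate number, edgeR also called Srsf6, Ptbp1 and Srsf9 higher, 31 members in all, and the 3 lower members were the same. Srsf12, the 36th member, was too low to test, with at most 0.920 CPM in KO and 0.908 CPM in WT footprints. The 28 calls comprised 7 of the 10 SR proteins tested, 17 of 20 hnRNPs and 4 of the 5 TRA2 and PTB genes. Within single cultures, 31, 31, 32 and 31 members lay above the median gene in KO cultures 1 to 4, and 30, 31, 32 and 32 in WT cultures 1 to 4.

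**Figure D1:**
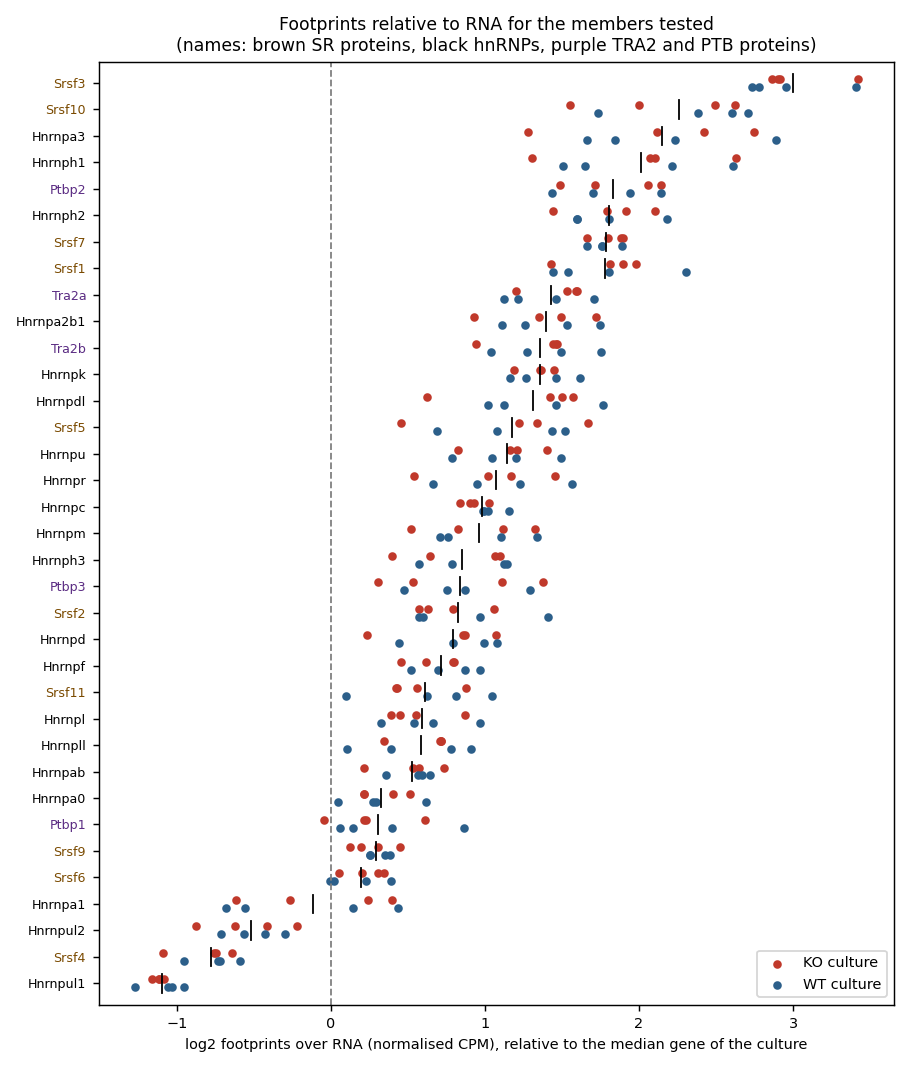
Footprints over RNA on a log2 scale for the 35 members tested, each point 1 culture (KO upper row in red, WT lower row in blue), the short black line the mean of the 8 cultures, and the dashed line the median gene of each culture. Srsf3 lies between 2.73 and 3.42 in all 8 cultures, and Hnrnpul1, Srsf4 and Hnrnpul2 lie below 0 in all 8.

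Srsf3 is the smallest of the SR proteins, a splicing and export adaptor that autoregulates through a poison exon. It had the highest ratio of the members. Its footprints were 381, 353, 504 and 549 CPM in the 4 KO cultures, against 181, 349, 488 and 676 CPM in the WT cultures. Its RNA was 57.7, 53.7, 73.5 and 56.9 CPM in KO, against 30.3, 56.7, 70.0 and 71.3 CPM in WT. Footprints exceeded RNA in every culture by a wide margin, and KO and WT overlapped in both assays. The fitted log2 ratio was 3.03 (SE 0.21, edgeR adjusted p = 1.4e-08), at percentile 98.4 of all genes tested. Srsf10, which acts as a splicing repressor when dephosphorylated, followed at 2.26 (SE 0.17, edgeR adjusted p = 2.7e-08), with ratios of 1.55 to 2.62 in KO cultures and 1.73 to 2.71 in WT cultures. Srsf1, the founding SR protein, stood at 1.81 (SE 0.16, edgeR adjusted p = 2.1e-07). Srsf7, a paralog of Srsf3 described here after its values were seen, stood at 1.80 (SE 0.19).

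The other SR proteins spread down to values below 0. Srsf2, which marks nuclear speckles, was called higher at 0.82 (SE 0.23, edgeR adjusted p = 0.0065). Srsf5 and Srsf11, described after their values were seen, were also called higher, at 1.20 and 0.68. Srsf6 had a log2 ratio of 0.24 (SE 0.11, edgeR adjusted p = 0.064), and with the culture block 0.24 (SE 0.06, edgeR adjusted p = 0.0049). Srsf9, described after its values were seen, had 0.30 (SE 0.18, edgeR adjusted p = 0.16) and was called higher with either block. Srsf4, a close relative of Srsf5 and Srsf6 with a long serine-rich tail, was the lowest SR protein. It had 86.4, 70.4, 91.6 and 62.1 CPM of footprints in KO, against 64.9, 68.0, 87.9 and 98.7 CPM in WT. Its RNA was higher, at 165, 122, 168 and 146 CPM in KO, against 109, 125, 162 and 213 CPM in WT. Footprints lay below RNA in each of the 8 cultures, with a fitted log2 ratio of -0.75 (SE 0.16, edgeR adjusted p = 0.00082).

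Among hnRNPs, paralogs of similar sequence differed in the ratio. The A/B group bind RNA through a pair of RNA recognition motifs. Hnrnpa3 stood at 2.15 (SE 0.24, edgeR adjusted p = 1.7e-06) and Hnrnpa2b1, a carrier of RNA along dendrites in neurons, at 1.44 (SE 0.16, edgeR adjusted p = 1.6e-06). Hnrnpa1, the best studied of the group, stood at -0.08 (SE 0.16, edgeR adjusted p = 0.68). Its footprints were 451, 396, 484 and 467 CPM in KO, against 248, 408, 448 and 518 CPM in WT. Its RNA was 613, 669, 449 and 394 CPM in KO, against 442, 671, 450 and 428 CPM in WT. Its ratio lay below that of the median gene in replicates 1 and 2 of both genotypes and above it in replicates 3 and 4. RefSeq lists pseudogenes named for Hnrnpa1 and for Srsf3. How reads shared with near-identical copies were assigned is not given, so the values of these 2 genes are uncertain to that extent. Other members may carry the same uncertainty.

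Hnrnph1, which binds runs of guanines, stood at 2.04 (SE 0.17, edgeR adjusted p = 8.8e-08), and its footprints of 396 to 568 CPM in KO and 319 to 727 CPM in WT compare with RNA of 102 to 177 CPM in KO and 113 to 196 CPM in WT. Of its relatives, Hnrnpf stood at 0.76 (SE 0.12), and Hnrnph2 and Hnrnph3, described after their values were seen, at 1.80 (SE 0.18) and 0.88 (SE 0.22). Hnrnpk, a poly-cytosine binder, stood at 1.40 (SE 0.11, edgeR adjusted p = 3.4e-08), and Hnrnpc, which binds uridine tracts, at 1.03 (SE 0.11, edgeR adjusted p = 1.1e-06).

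The group named for hnRNP U, a nuclear matrix protein that binds RNA and DNA, differed in sign. Hnrnpu, described after its values were seen, stood at 1.17 (SE 0.12, edgeR adjusted p = 9.4e-07), while its paralogs Hnrnpul1 and Hnrnpul2 stood at -1.05 (SE 0.12, edgeR adjusted p = 3.4e-06) and -0.48 (SE 0.12, edgeR adjusted p = 0.0027). Hnrnpul1 had 221, 179, 207 and 222 CPM of footprints in KO, against 189, 154, 189 and 251 CPM in WT. Its RNA was 530, 443, 491 and 533 CPM in KO, against 407, 414, 426 and 584 CPM in WT. The 8 cultures fell in a narrow range of ratios, -1.16 to -1.09 in KO and -1.27 to -0.95 in WT. Hnrnpul2 ranged from -0.88 to -0.22 in KO and from -0.71 to -0.30 in WT.

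The TRA2 proteins, which activate exons with purine-rich enhancers, were close to each other, at 1.47 for Tra2a (SE 0.12, edgeR adjusted p = 1.0e-07) and 1.40 for Tra2b, described after its values were seen (SE 0.11, edgeR adjusted p = 5.3e-08). The PTB paralogs, which silence exons through pyrimidine tracts, were not. Ptbp2 stood at 1.81 (SE 0.22, edgeR adjusted p = 5.1e-06), Ptbp3, described after its values were seen, at 0.84 (SE 0.18) and Ptbp1 at 0.29 (SE 0.20, edgeR adjusted p = 0.22). With the culture block Ptbp1 stood at 0.35 (SE 0.08, edgeR adjusted p = 0.0013). Ptbp2 footprints were 241, 247, 170 and 188 CPM in KO, against 259, 300, 127 and 234 CPM in WT. Ptbp2 RNA was 61.7, 97.0, 56.8 and 50.2 CPM in KO, against 75.1, 124, 43.1 and 59.2 CPM in WT. Ptbp1 footprints were 457, 470, 543 and 543 CPM in KO, against 323, 422, 567 and 575 CPM in WT. Ptbp1 RNA was 441, 340, 514 and 622 CPM in KO, against 272, 259, 569 and 616 CPM in WT. Per length, in the deposited TPM, Ptbp1 exceeded Ptbp2 by 1.89, 1.89, 3.20 and 2.86 times in KO footprints and by 1.25, 1.40, 4.46 and 2.46 times in WT footprints. In RNA the excess was 7.02, 3.48, 8.92 and 12.1 times in KO and 3.60, 2.07, 13.1 and 10.4 times in WT. In each of the 8 cultures the excess of Ptbp1 over Ptbp2 was smaller in footprints than in RNA.

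**Figure D2:**
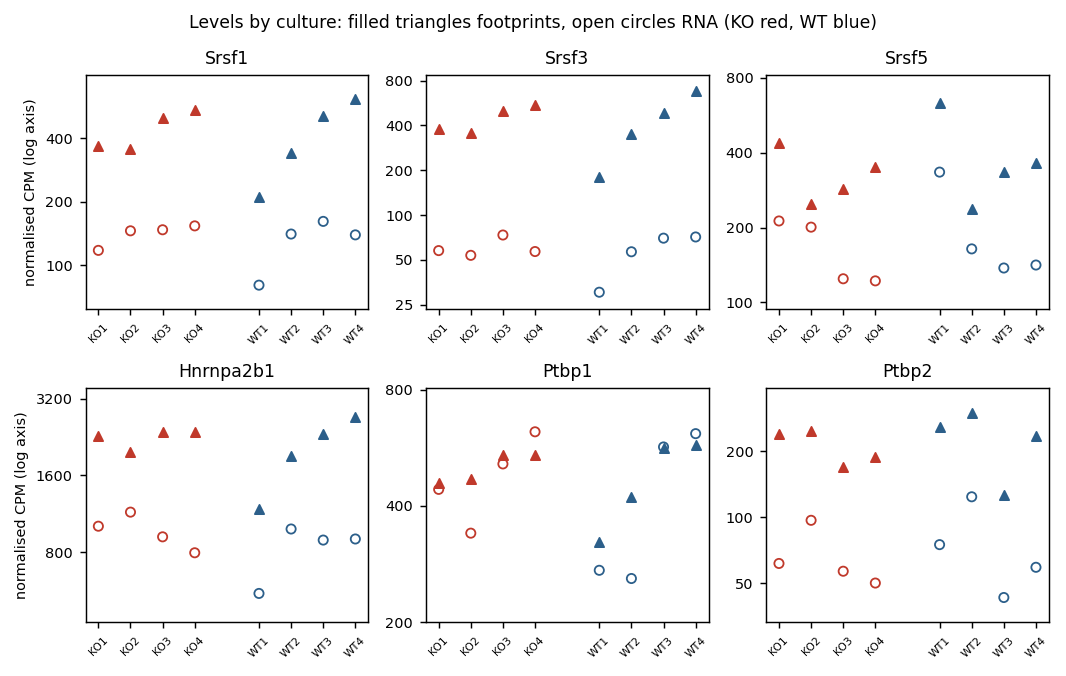
Normalised CPM on log axes for 6 members in each culture, footprints as filled triangles and RNA as open circles, KO cultures in red on the left and WT cultures in blue on the right of each panel. WT culture 1 is the lowest point for Srsf1, Srsf3 and Hnrnpa2b1 in both assays and the highest for Srsf5 in both.

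Levels between genes were compared in the deposited TPM, which is per length, as the mean over 8 libraries of an assay with its SD. Hnrnpa2b1 was the most abundant member in both assays, at 2178 ± 377 TPM in footprints and 1115 ± 282 TPM in RNA. Behind it in RNA came Hnrnpab at 962 ± 187 TPM and Hnrnpk at 739 ± 155 TPM, and Hnrnpa1 at 667 ± 217 TPM. In footprints the order was Hnrnpk at 1388 ± 100 TPM, Hnrnpa3 at 1205 ± 228 TPM, Hnrnpab at 919 ± 252 TPM and Srsf3 at 915 ± 278 TPM, and the last 2 differ by far less than their spread. Hnrnpa1 was at 409 ± 63.5 TPM in footprints. The lowest members tested in RNA were Ptbp3 at 39.9 ± 15.9 TPM and Ptbp2 and Hnrnph3, both at 50.2 TPM.

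The ratio of footprint to RNA counts depended on transcript length, and the members were set against genes of like length for this reason. Dividing counts by the deposited TPM gives, up to a constant, the transcript length behind each estimate. It could be computed for 3725 genes with at least 20 TPM, 35 of them members. Across 3714 genes the count ratio fell with this length (Spearman's rho -0.59, across genes, which are not independent replicates), and the same held more weakly for the TPM ratio (rho -0.34). In 8 length bands of these abundant genes the median log2 count ratio ran from 2.25 in the shortest to -0.15 in the longest. Within their own band 27 of the 35 members lay above the median in counts and 26 in TPM, at a median percentile of 79.5 and 78.2. Srsf3, in the second shortest band, had a log2 TPM ratio of 2.36 against a band median of 0.68. Hnrnph1 had 2.00 against 0.25, Hnrnpa3 2.12 against 0.25, Srsf10 2.07 against 0.51 and Ptbp2 1.84 against 0.14. Of the low members, Hnrnpul1 had -0.86 against -0.04 and Srsf4 -0.75 against 0.25. Srsf2, Srsf6, Srsf9, Hnrnpa0 and Hnrnpa1 lay below their band's median on both scales. Not centred on the median gene, TPM gave 18 members higher and 7 lower by limma-trend, where 16.9% of all genes were higher and 45.9% lower. Hnrnpa0, called higher in counts, was among the lower there, as were Hnrnpa1, Srsf6 and Srsf9, which the count fit did not call lower. The median of all genes was then -0.42, so that the members stood 0.82 above it. Centred, it gave 30 higher and 2 lower, where 37.0% of all genes were higher and 25.2% lower. Hnrnpul2 was then no longer called lower.

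**Figure D3:**
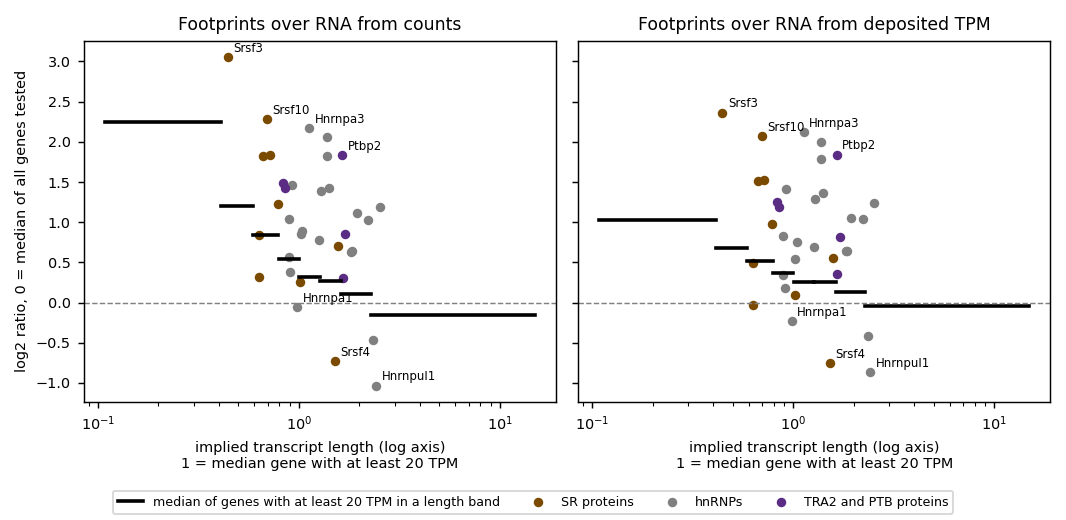
Log2 footprints over RNA of the members (points) against the transcript length implied by counts and TPM, on a log axis with the median gene of at least 20 TPM at 1. The dashed line at 0 is the median of all genes tested. Black bars are medians of genes with at least 20 TPM in 8 length bands, falling from 2.25 to -0.15 in counts (left) and from 1.03 to -0.04 in TPM (right), and most members lie above the bar of their band in both panels.

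The table gives 1 value per gene, so productive and non-productive isoforms could not be separated. The implied length gives a partial view, since it moves when the estimated isoform mix moves. Over 8 RNA libraries its coefficient of variation was 0.36% for the median member, against 0.59% for the median gene with a value, and over 8 footprint libraries 0.24% against 0.43%. The KO mean over the WT mean was 0.993 to 1.01 in footprints and 0.974 (Srsf10) to 1.02 (Hnrnpr) in RNA. Hnrnpul1 varied most in footprints. Its implied length was 2.29, 2.72, 2.40 and 2.27 times that of the median gene of at least 20 TPM in KO footprints. In WT footprints it was 2.33, 2.70, 2.32 and 2.34 times, so it was high in replicate 2 of both genotypes. In RNA it was 2.96 to 3.03 times in KO and 2.92 to 3.16 times in WT. A lower value in footprints than in RNA was not particular to Hnrnpul1. Other long members had it too, with Hnrnpu at 2.52 against 2.90, Hnrnpul2 at 2.35 against 2.67 and Hnrnpm at 2.22 against 2.51. The shortest member, Srsf3, had the reverse, at 0.44 in footprints against 0.31 in RNA. RefSeq (GRCm38.p6) lists at least 1 non-coding transcript (accession prefix NR) for 10 of the 36 members (27.8%), against 8.21% of 10336 protein-coding genes tested. The 36 include Srsf12, which was not tested. This background was not matched for abundance or for the number of transcripts listed, which was 35 for Srsf11. The 10 are Srsf3, Srsf7, Srsf9, Srsf11, Hnrnpa1, Hnrnpa2b1, Hnrnpdl, Hnrnpk, Hnrnpll and Hnrnpu. Relative to the median gene, their median log2 count ratio was 1.29, against 0.90 for the 25 tested members without one, and in all protein-coding genes it was -0.04 with such a transcript and 0.00 without.

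Between KO and WT, 0 of the 35 members passed the edgeR threshold of an adjusted p under 0.05 in footprints, in RNA or in footprints relative to RNA, and 0 had an unadjusted p under 0.05 in any of them, where 4.59%, 1.87% and 0.129% of all genes did. DESeq2 and limma-voom also called 0 members at an adjusted p under 0.05. The background was low as well: edgeR called 0.0349% of 11472 genes in footprints, 0.00901% of 11097 in RNA and 0.0% of 10863 in footprints relative to RNA. The log2 fold changes of the members, KO over WT, had a median of 0.09 in footprints (range -0.24 for Srsf5 to 0.23 for Hnrnpab), of 0.09 in RNA (-0.23 for Srsf5 to 0.27 for Srsf10) and of -0.01 in footprints relative to RNA (-0.18 for Srsf10 to 0.11 for Hnrnpll), against 0.01 for all genes in each. Their standard errors ran from 0.11 to 0.31 in footprints, 0.18 to 0.36 in RNA and 0.21 to 0.49 in the ratio. The 95% intervals differed in width between members. In footprints they were narrowest for Hnrnpr, at -0.22 to 0.29, and widest for Srsf5, at -0.96 to 0.47. In RNA they were narrowest for Hnrnpc, at -0.35 to 0.47, and widest for Hnrnpa3, at -0.55 to 1.07. With 4 cultures a group, each interval gives the changes compatible with a member's values. It does not give the smallest change that could be called. Identifier length, which follows the replicate number, was a term in the footprint and ratio fits and not in the RNA fit. The replicate number itself was not used. With that number as a block, the SE for Srsf10 RNA was 0.15, against 0.30 without it. For Hnrnpf footprints it was 0.15, against 0.14, and 0.22 with neither the block nor the identifier length. The ratio fit also leaves unused that footprints and RNA came from the same lysates. With the culture as a block, the SE in the ratio was 0.26 for Srsf10, 0.11 for Hnrnpc, 0.14 for Tra2a and 0.15 for Hnrnpll. Without the block these were 0.32, 0.22, 0.24 and 0.27, and 0 members were called in either fit.

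**Figure D4:**
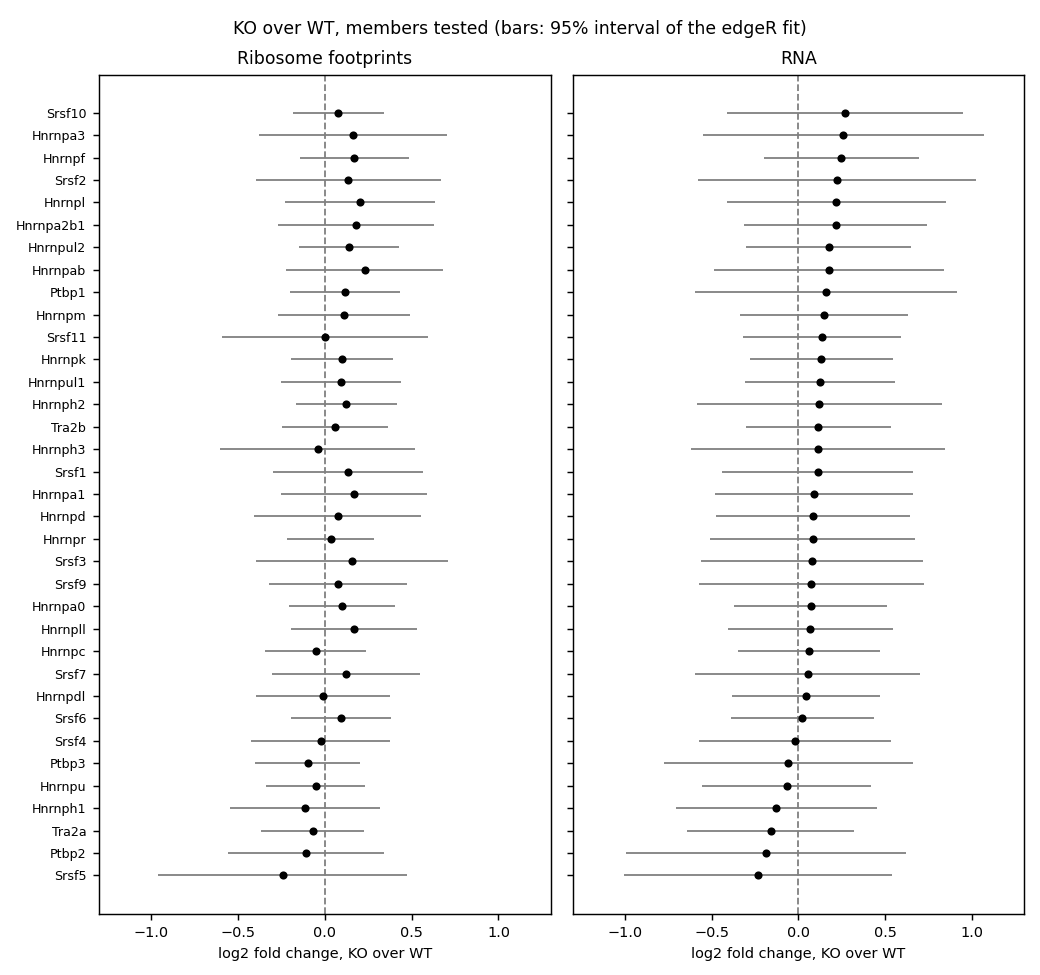
Log2 fold change of KO over WT for the 35 members tested, in footprints (left) and RNA (right), with 95% intervals of the edgeR fit, ordered by the RNA value. Every interval includes 0, and point estimates run from -0.24 to 0.23 in footprints and from -0.23 to 0.27 in RNA.

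The 4 genotype pairs of the same replicate number did not move together. The median member had a log2 KO over WT of 0.53, 0.02, 0.01 and -0.18 in footprints of pairs 1 to 4, and of 0.47, 0.10, 0.01 and -0.11 in RNA, while the median of all genes tested was at most 0.05, in RNA of pair 2. In pair 1, 31 of 35 members were higher in KO footprints and 29 in KO RNA, and in pair 4 only 4 and 11 were. Without WT replicate 1 the members' median relative to all genes was -0.02 in footprints and 0.02 in RNA, against 0.09 and 0.08 with it.

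The smallest p-values in RNA and footprints both belonged to Hnrnpf, a relative of Hnrnph1 that binds guanine runs. Hnrnpf RNA was 672, 688, 702 and 671 CPM in KO, against 413, 608, 606 and 669 CPM in WT. The ranges do not overlap, with 671.4 CPM in the lowest KO culture and 669.5 CPM in the highest WT culture, and Hnrnpf was the only member with ranges apart in RNA (background 0.694% with KO higher). The log2 fold change was 0.25 (SE 0.20, edgeR adjusted p = 1.0). Its footprints, at 912, 854, 1109 and 1052 CPM in KO and 601, 783, 1069 and 1096 CPM in WT, overlapped, with a log2 fold change of 0.17 (SE 0.14, edgeR adjusted p = 1.0). Hnrnpf, Hnrnpk and Hnrnpr were higher in KO RNA in each of the 4 pairs, 3 of 35 members, where the background was 8.32%. The ranges of 0 members were apart in footprints (background 1.06% with KO higher), and in footprints relative to RNA Hnrnpf alone was lower in KO in each of the 4 pairs (background 7.32%). Hnrnpa2b1 RNA was 1011, 1149, 919 and 796 CPM in KO, against 551, 986, 892 and 901 CPM in WT, with a log2 fold change of 0.21 (SE 0.23, edgeR adjusted p = 1.0). Hnrnpab, Hnrnpl and Hnrnpul2 had log2 fold changes in footprints of 0.23 (SE 0.20), 0.20 (SE 0.19) and 0.14 (SE 0.12). In footprints relative to RNA, Srsf10, Hnrnpc, Tra2a and Hnrnpll had the smallest p-values, with log2 differences of -0.18 (SE 0.32), -0.10 (SE 0.22), 0.10 (SE 0.24) and 0.11 (SE 0.27), and the edgeR adjusted p of each was 1.0. Several of these estimates rest on 1 culture. Without WT replicate 1 the log2 fold change was 0.11 for Hnrnpf RNA, 0.06 for Hnrnpf footprints, 0.06 for Hnrnpa2b1 RNA, 0.03 for Hnrnpl footprints and 0.07 for Hnrnpul2 footprints. Hnrnpab footprints stood at 0.09 without WT replicate 1 and at 0.05 without KO replicate 1. With 1 replicate left out at a time, the log2 difference in footprints relative to RNA ranged from -0.35 to -0.04 for Srsf10 and from -0.14 to -0.06 for Hnrnpc, and it changed sign for Tra2a and Hnrnpll.

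Some cultures stood at one end of the range for many members at once. WT culture 1 had the lowest RNA of the 8 libraries for 21 of the 35 members (background 21.6%) and the lowest footprints for 23 (background 27.8%). WT culture 4 had the highest footprints for 26 (background 15.6%). Srsf5 ran the other way. This SR protein gene, first described in rat liver cells as an insulin-induced transcript, had 213, 201, 124 and 122 CPM of RNA in KO, against 334, 164, 137 and 141 CPM in WT. Its footprints were 437, 249, 287 and 350 CPM in KO, against 635, 237, 335 and 364 CPM in WT. It was highest in culture 1 of both genotypes in both assays. The immediate early gene Fos was also highest there, with RNA at 3040, 849, 11.3 and 5.95 CPM in KO and 4084, 730, 46.8 and 18.2 CPM in WT. Egr1 RNA was 2769, 1193, 384 and 242 CPM in KO and 2929, 738, 483 and 451 CPM in WT. Whether whatever raised Fos and Egr1 in these cultures had a part in the Srsf5 values was not tested, and Srsf5 was singled out after its values were seen.

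In footprints and in the ratio, replicates 1 and 2 also stood apart from replicates 3 and 4, in both genotypes at once. In footprints 18 of 35 members were lower in all 4 cultures of replicates 1 and 2 than in any of replicates 3 and 4 (background 15.1%), and only Ptbp2 was higher (background 16.5%). In RNA only 5 of 35 members were lower (Srsf2, Srsf7, Srsf9, Hnrnpab and Ptbp1, background 16.9%). Only 4 were higher (Srsf5, Hnrnph2, Hnrnpu and Ptbp2, background 14.1%), so neither share exceeded that of all genes. The PTB pair thus ran in opposite directions in both assays. The ratio was lower in replicates 1 and 2 for 15 members, Hnrnpa1, Hnrnpa3 and Hnrnph1 among them (background 7.86%), and higher for Hnrnpl and Ptbp1 (background 11.7%). The median member's ratio relative to the median gene was 1.02, 0.61, 1.07 and 1.32 in KO cultures 1 to 4, and 0.79, 0.81, 1.11 and 1.29 in WT cultures 1 to 4. Fitted within replicates 1 and 2 alone, edgeR called 21 members with more footprints than RNA and 3 with fewer, and within replicates 3 and 4 alone 29 and 3. Identifier length in the footprint libraries and culture cannot be told apart here, since both change with the replicate number.

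Promoter sequence was looked at for what the members share. RefSeq (GRCm38.p6) gave 45 promoters for 33 members, and Hnrnpll, Hnrnpul2 and Ptbp3 had no entry. In the 250 bases before the start, on both strands, the cyclic AMP response element core TGACG was found in 22 of the members' 45 promoters (48.9%), against 27.4% of 10790 promoters of genes tested, and the CCAAT box also in 22 (48.9%), against 35.6%. The ETS core CCGGAAG was found in 9 (20.0%), against 13.8%, and TATAAA in 3 (6.67%), against 5.79%. The full element TGACGTCA, which holds TGACG on both strands, was found in 1 (2.22%), against 2.75%, the AP-1 site TGAGTCA in 1 (2.22%), against 2.81%, and the E2F core TTTCGCGC in 0, against 0.519%. Members have several promoters each in some cases, so these counts are descriptions and not independent draws. A match is not evidence of binding.

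A stretch of 30 bases is shown for the member with the highest ratio (Srsf3, chr17:29032630-29032659, plus strand), for the one that was highest in culture 1 of both genotypes and assays (Srsf5, chr12:80945469-80945498, plus strand) and for the one with the lowest ratio (Hnrnpul1, chr7:25754810-25754839, minus strand). Each runs 5′ to 3′ on the gene's strand, from RefSeq (GRCm38.p6), with matches to the motifs above in capitals.
Srsf3: agagcagggtgcTATAAAtagggcgagggg
Srsf5: caccgccCCGGAAGTGACGccaggacgtcc
Hnrnpul1: gccccatgcgctgaCCAATtgagactcgtt
In Srsf3 the TATAAA starts 18 bases before the annotated start. In Srsf5 the ETS core, from 23 bases before the start, runs straight into TGACG, from 16 bases before it. In Hnrnpul1 the CCAAT box starts 66 bases before the start of that promoter entry. This start is internal, since the stretch lies inside the RefSeq span of the gene, 25721161 to 25756268. The Srsf5 stretch also ends a few bases inside the gene's span, which begins at 80945495.

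Other genes of the splicing machinery were counted in the same fit, where the median of abundant genes was 0.54. The count ratio falls with transcript length, and these lists were not set against genes of like length. In no other list below did edgeR call a gene between KO and WT in any of the 3 comparisons. The core spliceosome had more footprints than RNA for 22 of 33 genes and fewer for 1, with a median log2 ratio of 0.61. Snrpe and Snrpg, short Sm ring proteins, were its highest at 5.70 (SE 0.23) and 5.01 (SE 0.28). Prpf8, the large protein at the catalytic core, was its lowest at -1.14 (SE 0.13). Relative to the median gene, the log2 TPM ratio was 3.56 for Snrpe, 1.77 for Snrpg and -0.95 for Prpf8. Other abundant nuclear RNA-binding proteins had 21 of 25 higher and 1 lower (median 0.92), from Safb at -0.41 to Matr3 at 2.60. SR-related and nuclear speckle proteins had 10 of 21 higher and 4 lower (median 0.33), from Scaf1 at -1.48 to Rsrc2 at 1.96. The SR protein kinases, which phosphorylate the serine-rich tails, had 1 of 8 higher, Prpf4b at 2.13 (SE 0.32), and 3 lower, with Dyrk1a at -1.12 (SE 0.11) and Clk2 at -0.83 (SE 0.11) the lowest (median -0.25). The factors of nonsense-mediated decay and the exon junction complex split into 5 higher and 5 lower of 15 (median -0.18). The junction subunits Magoh at 3.48 (SE 0.27) and Magohb at 3.33 (SE 0.29) were highest, and the decay factors Smg5 at -2.89 (SE 0.20) and Smg6 at -1.09 (SE 0.12) lowest.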

How the data were processed

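The authors deposited estimated counts per gene and TPM, both as whole numbers. Deposited TPM thus lost its fraction and is handled as a score. RSEM 1.2.11, SAMtools 0.0.19, TopHat2 2.0.9, cutadapt 1.7.1, bedtools 2.22.0, Bowtie2 2.1.0 and build mm10 appear, with no role, in the submitters' notes on processing. Whether strand was used, whether reads were counted over coding sequence or whole transcripts, and how footprint identifiers were collapsed is not given in the sources at hand. RefSeq spans of 11 members overlap another protein-coding gene (Hnrnpab, Hnrnpd, Hnrnpdl, Hnrnpf, Hnrnph3, Hnrnpk, Hnrnpll, Hnrnpu, Ptbp1, Srsf2 and Srsf9), whose reads cannot be told apart there without strand. Of 20436 rows, 27 held a number in place of a symbol (0.244% to 0.422% of a library) and were left out, leaving 20409 genes.

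Counts were tested with edgeR 4.0.16 in R 4.3.3 (TMM, filterByExpr, glmQLFit and glmQLFTest, two-sided, Benjamini-Hochberg over all genes tested, threshold 0.05). RNA was fitted on genotype over 8 libraries. Footprints were fitted on genotype and identifier length over 8 libraries. Footprints relative to RNA were fitted over all 16 libraries as the assay by genotype interaction. Footprints against RNA were the assay term of the same model, averaged over genotype and identifier length. This model also held identifier length within footprints. CPM is TMM-scaled within an assay, and the ratio by culture is centred on the median gene. Limma 3.58.1 and DESeq2 1.42.0 were alternatives, and limma-trend on log2(TPM + 1) the one for TPM. Replicates are independently isolated cells per the labels. Samples with the same replicate number deviated together (correlation of deviations from the group means 0.524 to 0.635 in RNA and 0.403 to 0.568 in footprints, against at most 0.400 and 0.460 between other numbers), so fits with the replicate number or the culture as a block were alternatives.

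The members, gene lists and tests were chosen with earlier results of these data known. The members given in full were those with the 4 smallest p-values in each KO and WT comparison, the 6 lowest and 6 highest ratios, the 3 highest TPM in RNA and the 3 widest RNA ranges, 21 in all. Any other member given a value of its own was chosen after its values were seen.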

Additional observations from a re-analysis of the deposited data

Results flagged for a closer look

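In groups of 4 cultures, the highest or lowest value was farther from the nearest other culture than Dixon's 95% limit allows in 7 of 126 groups of named members, and chance alone sets apart about 1 in 20. Tra2a had a footprint to RNA log2 ratio of 1.20 in KO replicate 2, against 1.53 to 1.60 in the other KO cultures. Hnrnpll had 195.9 CPM of footprints in KO replicate 2, against 242.5 to 247.2 CPM in the others, and a log2 ratio of 0.34 there, against 0.71 in each of the others. Hnrnpul1 RNA was 583.6 CPM in WT replicate 4, against 406.8 to 426.5 CPM in the other WT cultures. Hnrnpa1 RNA was 670.9 CPM in WT replicate 2, against 427.7 to 450.0 CPM. Srsf6 RNA was 267.0 CPM in KO replicate 4, against 211.0 to 214.2 CPM in the other KO cultures. Srsf3 had a log2 ratio of 3.42 in KO replicate 4, against 2.86 to 2.91 in the other KO cultures.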

How the results depend on the processing

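Under every alternative run, 0 members were called between KO and WT in footprints, RNA or their ratio. Over all genes, RNA had 1 gene higher and 0 lower. DESeq2 gave 13 higher and 7 lower, and limma-voom and the replicate block 0 higher. Footprints had 3 higher and 1 lower. DESeq2 gave 56 and 26, the replicate block 0 and 0, limma-voom 3 lower, and library totals and no count filter 2 lower each. Leaving out 1 replicate gave 0 to 1 higher in RNA, and 0 to 11 higher and 0 to 3 lower in footprints. Without KO replicate 1, or KO replicate 2, or any WT replicate but the first, footprint calls were 0, and without KO replicate 4 they were 11 and 3. For footprints against RNA, the member counts stayed at 25 to 31 higher and 3 lower with other count models and scalings, and at 26 to 28 higher with 1 replicate left out. The replicate block gave 31 higher, adding Srsf6 (0.24, edgeR adjusted p = 0.018), Ptbp1 (0.35, edgeR adjusted p = 0.016) and Srsf9, and it changed no other call on a member. Library totals gave 25, without Hnrnpa0, Hnrnpab and Hnrnpl, since the median of all genes was then -0.21. TPM + 1 and TPM + 0.5, not centred, gave 18 higher and 7 lower members, and 1838 and 1837 genes higher, with Srsf6 at -0.33 in both and Ptbp1 at -0.0783 and -0.0784. The centring on the median gene was chosen after seeing the data. Hnrnpa1 was 0.29 in replicates 3 and 4 only (edgeR adjusted p = 0.042). The KO minus WT difference in the ratio was -0.0052 for Hnrnpll without KO replicate 1 (range with 1 replicate left out -0.0052 to 0.19) and -0.0093 for Tra2a without WT replicate 1 (range -0.0093 to 0.24). The cause of these shifts was not tested. A correction for the coding share of each transcript was not run. Low counts limited Srsf12, and rounding limits TPM of low genes.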
